A study of Mus musculus with 2 samples.

Results

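Integrins are receptors that hold cells to the matrix and to other cells, and laminins are the trimeric proteins that lay down basement membranes. The genes described here are the protein-coding mouse genes whose symbols name an integrin alpha subunit (Itga), an integrin beta subunit (Itgb) or a laminin chain (Lama, Lamb, Lamc), chosen by symbol and not by level. They number 35 of 43346 genes in the tables, with 17 integrin alpha, 7 integrin beta and 11 laminin genes. They were measured by polyA RNA sequencing in whole liver taken from C57BL/6J embryos on embryonic day 14.5. The series holds 1 untreated group of 2 libraries, each labelled a biological replicate and prepared from pooled male and female littermates. There is no contrast of conditions, so the report gives levels, ratios between partners, transcript forms and the difference between the libraries.

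An integrin is a pair of 1 alpha and 1 beta subunit, and the pair decides which ligand is bound. The beta1 subunit pairs with many alpha subunits and reaches collagens, laminins and fibronectin, whereas beta2 is the subunit of leukocytes. A laminin is a cross-shaped trimer of 1 alpha, 1 beta and 1 gamma chain. The fetal liver at this age is the main site of blood formation, and blood cells at all stages of maturation lie among hepatoblasts, sinusoidal endothelium and stellate cells. The sinusoid is known for a sparse basement membrane.

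The libraries held 102720906 and 65640929 estimated gene counts in replicates 1 and 2. All 8 erythroid markers and all 8 markers of hepatoblasts reached 1 TPM (a level per transcript length, scaled to the same total in each library) in both libraries, with medians of 225 ± 9.14 and 891 ± 122 TPM (SD, n = 2). Endothelial markers had a median of 9.99 ± 0.0141 TPM and macrophage markers 19.4 ± 3.5 TPM. In such a whole tissue, fewer cells of a type and less RNA per cell cannot be told apart. The libraries differed in other ways: the summed level of 6 nerve markers was 1.47 TPM in replicate 1 and 4.94 TPM in replicate 2. Of the 6, 5 were called higher in replicate 2 by the test described further on, beside 3.8% of all tested genes.

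Of the 35 members, 16 reached 1 TPM in both libraries, 1 did so in replicate 1 alone, and 18 stayed below 1 TPM in both. The share, 16 of 35, stood beside 49.5% of protein-coding genes. The members' median was 0.9 TPM in replicate 1 and 0.73 TPM in replicate 2, against 1.17 and 1.00 TPM over protein-coding genes. All members had at least 10 estimated counts in all, down to 15 in Itgb6, so none was without reads. By TPM the order was led by Itgb1, Itga4, Itgb5 and Lamc1. The place of Lamc1 rests on a short model. Over models of 2000 nt or more it had 4.21 and 3.25 TPM, below Itga5, Itgb2, Itgal and Itga6 in both libraries. With counts per length of the longest model (RPKM), Lamc1 had 6.24 and 6.22, still below Itga5 and Itgb2 in both libraries. On that scale it was above Itga6, with 4.51 and 3.82, in both and above Itgal, with 5.79 and 7.59, in replicate 1 alone. The 2000 nt limit drops 19.2% and 24.5% of Lamc1 counts with its leading model but keeps the leading model of Itga6, of 2721 nt. The place of Lamc1 against Itga6 and Itgal thus depends on the setting. Of the 15 neighbouring pairs in the order of level, 8 overlapped between libraries, all of them from Lamb2 downward, so that order is not settled by these libraries.

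**Figure D1:**
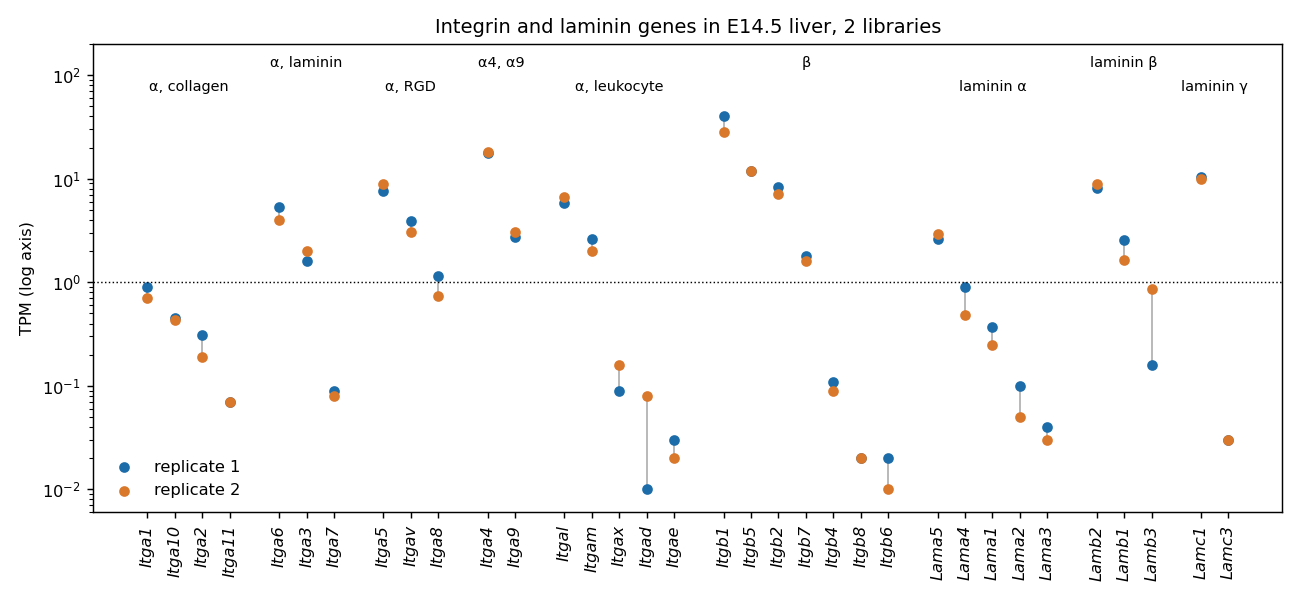
TPM of the integrin and laminin genes named in the text on a log axis, by role, with 1 point per library, a grey line joining the pair and a dotted line at 1 TPM. The 16 genes above the line in both libraries are spread over every role except the collagen-binding alpha subunits, and Lamb3 and Itgad have the widest gaps between libraries.

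Among the alpha subunits, Itga4 was the most abundant. It encodes the alpha4 subunit, which binds VCAM1 and fibronectin and is used by blood progenitors and maturing erythroid cells. Itga4 (chr2:79255426-79333123, mm10) measured 17.86 TPM in replicate 1 and 17.98 TPM in replicate 2, a mean of 17.9 ± 0.0849 TPM. The libraries gave nearly the same value. Its relative Itga9, a receptor for tenascin and VCAM1, had 2.71 and 3.08 TPM, about the level of the lower integrins.

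The subunits that bind the RGD motif were next. Itga5, the fibronectin receptor (chr15:103344286-103366763), measured 7.57 and 8.87 TPM. Itgav, which pairs with several beta subunits and binds vitronectin and latent TGF-beta, had 3.91 and 3.08 TPM. Itga5 stood above Itgav in both libraries. Itga8, a nephronectin receptor of mesenchymal cells, had 1.16 TPM in replicate 1 and 0.73 TPM in replicate 2 and so fell on both sides of the 1 TPM line.

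Of the laminin-binding alpha subunits, Itga6 (chr2:71745616-71858416) was the highest, with 5.35 and 4.02 TPM. Itga3, an epithelial laminin receptor, had 1.61 and 2.01 TPM. Itga7, the laminin receptor of muscle, had 0.09 and 0.08 TPM.

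None of the 4 collagen-binding alpha subunits reached 1 TPM in both libraries. Itga1, known from stellate and endothelial cells of the adult liver, was the highest of them with 0.90 and 0.71 TPM. Itga10 had 0.45 and 0.43 TPM, Itga2 had 0.31 and 0.19 TPM, and Itga11 had 0.07 TPM in both. Reads spanned 27 of the 28 junctions of Itga1 and all 29 of Itga2 and of Itga10, so these low levels came from spliced RNA. Itga1 and Itga2 are neighbours on chromosome 13.

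The leukocyte alpha subunits split into 2 above 1 TPM and 3 far lower. Itgal, the alpha subunit of LFA-1, had 5.88 and 6.64 TPM. Itgam, that of the complement receptor of macrophages and neutrophils (CD11b), had 2.64 and 1.99 TPM. Itgax (CD11c, of dendritic cells and some macrophages) had 0.09 and 0.16 TPM, Itgad had 0.01 and 0.08 TPM, and Itgae, the partner of beta7 on lymphocytes within epithelia, had 0.03 and 0.02 TPM. Itgam, Itgax and Itgad lie side by side on chromosome 7, and the 1 that reached 1 TPM was Itgam.

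Of the beta subunits, Itgb1 was the highest member of all. Itgb1 (chr8:128685654-128733200) measured 40.72 TPM in replicate 1 and 28.45 TPM in replicate 2, a mean of 34.6 ± 8.68 TPM, above 91.9% of protein-coding genes. Replicate 2 was the lower library, and its value still exceeded that of every other member in either library. Itgb5, the vitronectin partner of alphav, had 11.80 and 11.89 TPM. Itgb2, the common beta subunit of leukocytes, had 8.37 and 7.15 TPM. Itgb7, which pairs with alpha4 or alphaE on leukocytes, had 1.81 and 1.62 TPM.

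The remaining beta subunits were low. Itgb4, the hemidesmosome partner of alpha6, had 0.11 and 0.09 TPM although its only alpha partner was above 4 TPM in both libraries. Itgb8 had 0.02 TPM in both and Itgb6, an epithelial activator of TGF-beta, 0.02 and 0.01 TPM. The authors' credible interval for Itgb6 was 0.0634 to 1.23 TPM in replicate 1 and 0.0886 to 4.54 TPM in replicate 2, above these values. TPM lay below its interval in 5 of the 35 members in replicate 1 and 6 in replicate 2. Of the latter, 1 was at 1 TPM or more. Such low levels are therefore loose. Itgb5 exceeded its only alpha partner Itgav, which measured 3.91 and 3.08 TPM, in both libraries.

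The laminin alpha chains were low. Lama5, the broad epithelial and vascular chain, had 2.61 and 2.91 TPM. Lama4, the chain of vessel walls, had 0.90 and 0.48 TPM. Lama1, the chain of the early embryo, had 0.37 and 0.25 TPM, Lama2, the chain of muscle and nerve, 0.10 and 0.05 TPM, and Lama3, the chain of the epidermis, 0.04 and 0.03 TPM. Of the 5, only Lama5 reached 1 TPM in both libraries.

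The beta and gamma chains were each led by 1 or 2 genes. Lamb2 had 8.05 and 8.96 TPM and Lamb1 had 2.58 and 1.63 TPM, in that order in both libraries. Lamc1 (chr1:153218922-153332786), the gamma chain shared by most laminins, had 10.40 and 9.98 TPM. Lamc3 had 0.03 TPM in both libraries. Lamb3 was listed at 0.16 and 0.87 TPM, but its estimated counts were 95 and 60, and without models under 2000 nt it had 0.16 and 0.11 TPM.

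The levels of partners can be set side by side because TPM is per transcript length. The 12 alpha subunits that can pair with beta1 (Itga1 to Itga11 and Itgav) summed to 42.0 TPM in replicate 1 and 41.2 TPM in replicate 2, against 40.7 and 28.4 TPM of Itgb1. The log2 ratio of the sum to Itgb1 was 0.04 and 0.54, a mean of 0.29 ± 0.35 (SD, n = 2), so the ratio differed from equality by less than the spread. Itga4 made up 42.5% and 43.6% of the alpha sum, Itga5 18.0% and 21.5%, Itga6 12.7% and 9.75%, and Itgav 9.31% and 7.47%. Some of these also pair with other beta subunits. Over the 9 that pair with beta1 alone, the sum was 14.9 and 16.2 TPM and the mean log2 ratio -1.13, so less RNA than Itgb1.

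Among leukocyte integrins the alpha sum also differed from its beta subunit by less than the spread, as with all 12 beta1 partners. The 4 alpha partners of beta2 summed to 8.62 and 8.87 TPM beside 8.37 and 7.15 TPM of Itgb2, a mean log2 ratio of 0.18 ± 0.19. Itgal gave 68.2% and 74.9% of that sum and Itgam 30.6% and 22.4%, so these 2 made up nearly all of it in both libraries.

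The laminin chains were not balanced. The 5 alpha chains summed to 4.02 and 3.72 TPM, the 3 beta chains to 10.8 and 11.5 TPM and the 3 gamma chains to 10.5 and 10.1 TPM. The alpha to gamma log2 ratio was -1.42 ± 0.04 and the beta to gamma ratio 0.11 ± 0.10. The alpha chain sum was below the gamma sum in both libraries and under every alternative. Exon junctions held more reads toward the 3' end in the 5 alpha chains than in Lamc1. The mean over the last part of the longest model was 3.28 to 8.68 times that over the first part in the alpha chains. It was 1.83 times in Lamc1 and 3.83 times in Lamc3. No alternative took this slope into account, and its part in the size of the ratio was not tested. The beta to gamma ratio changed sign with the mm9 table, where it was -0.81, and was 0.61 when only models of 2000 nt or more were counted. Within the sums, Lama5 made up 64.9% and 78.2% of the alpha chains, Lamb2 74.6% and 78.2% of the beta chains and Lamc1 98.8% and 98.5% of the gamma chains. The log2 ratio of Lama5 to Lama4 was 1.54 and 2.60, a mean of 2.07. It was 1.32 over models of 2000 nt or more, 1.38 with counts per length of the longest model and 0.88 with the mm9 table.

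**Figure D2:**
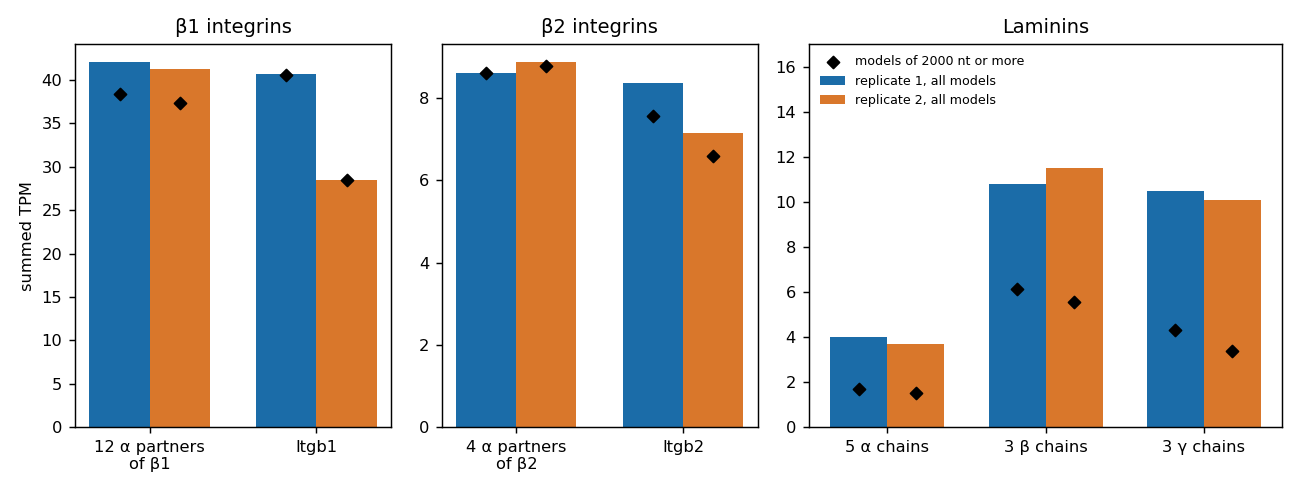
Summed TPM of integrin alpha subunits beside their beta subunit and of the 3 kinds of laminin chain, with 1 bar per library and diamonds for the sum over models of at least 2000 nt. Integrin alpha sums over all partners are near the beta subunit in replicate 1 and above it in replicate 2. The alpha chains of laminin lie below the beta and gamma chains in bars and diamonds alike.

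A gene's TPM is the sum over its transcript models, and short models weighed heavily in some members. Among the 16 genes at 1 TPM or more, the share of TPM on models under 2000 nt was 69.2% in Lama5, 63.4% in Lamc1, 55.9% in Itgav, 52.6% in Lamb2 and 47.8% in Itga9. It was at most 20.0% in the other 11. With these models left out, Lama5 had 0.79 and 0.91 TPM, and it is the only 1 of the 16 that then fell below 1 TPM in a library. Lamc1 had 4.21 and 3.25 TPM, Lamb2 3.89 and 4.18 TPM and Itgav 1.65 and 1.43 TPM.

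The leading model of a member was the same in both libraries for 14 of the 16. In Itga5, Itgb1, Itgb7, Itga4 and Itgb5 1 full-length model took over 90% of the TPM. In 3 members the leading model was under 2000 nt. Lama5-202, of 451 nt, took 44.66% and 33.32% of the gene's TPM with 2.94% and 1.36% of its estimated counts, and the full-length Lama5-201, of 11388 nt, took 30.21% and 31.47% with 93.5% and 95.3% of the counts. Itgav-205, of 463 nt, took 38.86% and 42.74% of the TPM with 3.20% and 2.16% of the counts, ahead of the full-length Itgav-201 at 28.71% and 31.76%. Lamc1-204, of 1447 nt, took 57.94% and 67.42%, ahead of Lamc1-201 at 40.50% and 32.58%.

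**Figure D3:**
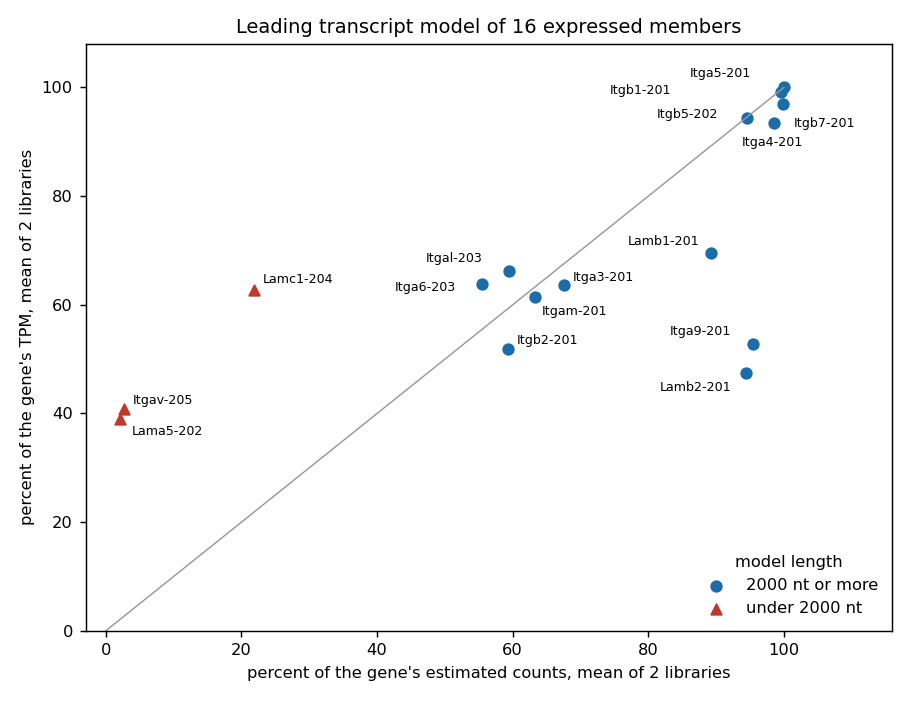
Share of the gene's TPM against the share of its estimated counts taken by the leading transcript model of each of the 16 members, as means of 2 libraries, with the line of equality. The 3 triangles, models under 2000 nt, lie far above the line, and the leading models of Itga5, Itgb1, Itgb7, Itga4 and Itgb5 lie in the upper right corner.

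The junction reads, a total over both libraries aligned to mm9, allow a separate look at these models. Junctions found in no other model of the gene had 0 reads for Lama5-202, Lamc1-204 and Itga6-203, whereas those of Lama5-201 had 172 reads, those of Lamc1-201 had 2736 and those of Itga6-201 had 91. Itgal-203, which took 60.77% and 71.72% of the Itgal TPM, begins with a junction that had 0 reads, and the first junction of Itgal-201 had 75. Itgav-205 had 1 read on its own junction. A count of 0 says only that these junctions were not seen at this depth.

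In other members the second model was a spliced variant of the first, a short model or one with a retained intron. Itgam-201 took 53.93% and 68.87% and Itgam-203 14.64% and 23.95%, 2 models that share all their junctions with another model. An unnamed Itgam model of 4310 nt took 28.51% in replicate 1, ahead of Itgam-203, and 2.15% in replicate 2. Itgb2-201 took 56.40% and 47.11% and Itgb2-204, a nonsense-mediated decay model whose own junction had 0 reads, 32.34% and 43.39%. Itgb1-202 took 0.78% and 0.19%, Itgb5-201 6.01% and 4.91%, Itga4-205 3.92% and 5.64% and Itgb7-202 0.00% and 5.95%. In the laminin beta chains, Lamb2-201 took 48.34% and 46.65% before Lamb2-205, a retained-intron model of 578 nt, at 39.11% and 24.87%, and Lamb1-201 took 68.27% and 70.96% before Lamb1-207, one of 424 nt, at 19.21% and 20.47%. Itga9-201 and Itga9-203 changed places, with 63.54% and 42.16% for the first and 18.95% and 57.84% for the other, which had 0 reads on its own junction.

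Itga6 has 2 cytoplasmic tails. The A tail is made when a penultimate exon with its own stop codon is kept, and the B tail when it is skipped and the next exon is read in another frame. This exon (chr2:71853534-71853663, plus strand, mm10, exon 25 of 26 of Itga6-201) has 130 bases. It is shown because its inclusion decides the tail, with the stop codon in capitals, read from the GENCODE M21 transcript.
Itga6 A-tail exon: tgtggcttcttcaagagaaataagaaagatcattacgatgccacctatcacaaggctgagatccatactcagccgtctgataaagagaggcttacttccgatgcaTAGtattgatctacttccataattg

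The transcript tables and the junction reads put the A tail at different shares. By TPM of the 1 model with this whole exon and the 2 that skip it, the A tail was 27.9% in replicate 1 and 22.2% in replicate 2. The mean was 25.1 ± 4.06% (SD, n = 2). Itga6-207, with 5.96% and 7.61% of the gene's TPM, was in neither group for any share by TPM or counts. Its last junction had 77 reads, the same as the junction entering the exon, so these shares may be too low for the A tail. By estimated counts it was 37.8% and 31.9%. By junction reads it was 67.5%, with 77 reads entering the exon and 37 skipping it, and an exact binomial 95% interval of 58.1% to 76.0%. The junction leaving the exon, with 91 reads, gave 71.1%, with an interval of 62.4% to 78.8%. The lower share in the tables came with Itga6-203, a model of 2721 nt that skips the exon and took 60.67% and 66.85% of the gene's TPM. Its own junction had 0 reads, and without it the A tail took 84.0% and 90.8% of the TPM. Intervals cover counting error only, and reads were not collapsed by molecule.

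In Itgb1 the tail known from striated muscle was not seen. The D tail of beta1 is made from an 81-base exon (chr8:128726983-128727063, plus strand, mm10, exon 3 of 4 of Itgb1-204) that ends the reading frame at its own stop codon, again in capitals.
Itgb1 D-tail exon: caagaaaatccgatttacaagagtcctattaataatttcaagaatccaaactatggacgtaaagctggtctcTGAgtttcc

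No read joined this exon to either neighbour, and 1273 reads skipped it. The exact binomial interval allows an inclusion of up to 0.289%. The model with the exon had 0 TPM in both libraries. Skeletal muscle markers summed to 13.7 and 9.49 TPM over 6 genes, with 2 of the 6 at 1 TPM or more in both.

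Other alternative exons were mostly fixed. There were 57 inner exons with an annotated skipping junction and at least 10 reads. Runs of neighbouring exons in Lamb1, Lama5 and Itgam without a skipping read were counted exon by exon. The 57 are therefore not 57 separate choices. By the upstream junction, 4 of the 57 had an inclusion between 5% and 95%. They were the Itga6 exon, an exon of 159 bases in Itgb4 and 2 overlapping forms of an exon of Itgb2. The Itgb4 exon had 4 reads on its upstream junction, 0 on its downstream junction and 11 skipping it. Its inclusion was 26.7% by the first junction and 0%, with an exact interval of 0% to 28.5%, by the second, so it is not settled. The 2 Itgb2 forms share an upstream junction with 115 reads, and 12 reads skipped both. On the downstream junctions the 89-base form had 185 reads and the 149-base form 5. Set against the 12 skipping reads alone, these gave 93.9% and 29.4%, the latter with an exact interval of 10.3% to 56.0%. Each percentage leaves out the reads of the other form, so 29.4% is not the share of the 149-base form among all reads. Itga3 kept its 142-base exon, whose loss gives the other tail of alpha3, in 86 reads with 0 skipping, with a lower bound of 95.8% inclusion. Itgb5 skipped a 66-base exon in 188 reads and kept it in 1.

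Itga3 has 2 annotated starts that the transcript tables weighed differently in the 2 libraries. Itga3-201 took 88.02% of the TPM in replicate 1 and 39.39% in replicate 2, and Itga3-202 took 7.55% and 53.34%. In junction reads over both libraries, the first junction of the Itga3-201 start had 24 reads. That of Itga3-202 had 38, but all junctions of Itga3-202 also belong to other models, so these reads do not compare the starts. Reads over Itga3 junctions rose toward the 3' end, from a mean of 30.1 in the first part to 82.2 in the last of the gene. The promoters are shown because the model shares changed between the libraries. They come from RefSeq, 250 bases before to 50 after the start, on the minus strand, in GRCm38.p6 (mm10), for Itga3-201 (chr11:95076665-95076964) and Itga3-202 (chr11:95069149-95069448). Capitals mark the GC box (GGGCGG) and the CCAAT box (CCAAT), searched with the TATA box (TATAAA) on both strands.
Itga3-201 promoter: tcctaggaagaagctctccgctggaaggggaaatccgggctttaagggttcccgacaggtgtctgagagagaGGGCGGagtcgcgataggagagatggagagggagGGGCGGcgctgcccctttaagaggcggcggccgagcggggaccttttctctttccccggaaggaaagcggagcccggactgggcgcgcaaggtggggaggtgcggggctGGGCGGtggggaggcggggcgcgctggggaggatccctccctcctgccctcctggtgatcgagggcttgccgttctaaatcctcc
Itga3-202 promoter: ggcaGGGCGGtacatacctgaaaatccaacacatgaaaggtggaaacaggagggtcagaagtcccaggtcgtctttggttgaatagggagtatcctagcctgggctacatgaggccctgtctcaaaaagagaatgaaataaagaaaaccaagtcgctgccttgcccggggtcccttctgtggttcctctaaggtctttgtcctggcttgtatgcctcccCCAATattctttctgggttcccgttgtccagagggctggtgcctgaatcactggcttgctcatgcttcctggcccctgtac

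The upstream promoter held 3 GC boxes, no CCAAT box and 24 CG dinucleotides. The downstream one held 1 GC box, 1 CCAAT box and 5 CG dinucleotides. Neither held a TATA box. RefSeq had a promoter for 22 members, 25 promoters in all. Of these, 12 held a GC box, 4 a CCAAT box and 0 a TATA box, beside 35.7%, 37.4% and 13.6% of 32851 promoters of all genes. A GC box was in 10 of 13 promoters of members with a mean of 1 TPM or more and in 2 of 12 of the other members. The median number of CG dinucleotides was 13 and 9 in these sets and 7 over all promoters. A gene with more than 1 promoter counts more than once here, and no test was made.

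Along the genes, reads over exon junctions were denser toward the 3' end in most members. The mean over the last part of the longest model was 8.68 times that over the first part in Lama1, 4.79 times in Itga2 and 3.28 times in Lama5, the last with 15.8 reads per junction in the first part and 51.8 in the last. In Lama1 the means were 2.85 and 24.8 reads. The ratio was 0.997 in Itga1, 0.984 in Itgb2 and 0.795 in Itga6. Over all 35 longest models, 904 of 1083 junctions had reads, and 14 of the 16 members at 1 TPM or more had reads on every junction.

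**Figure D4:**
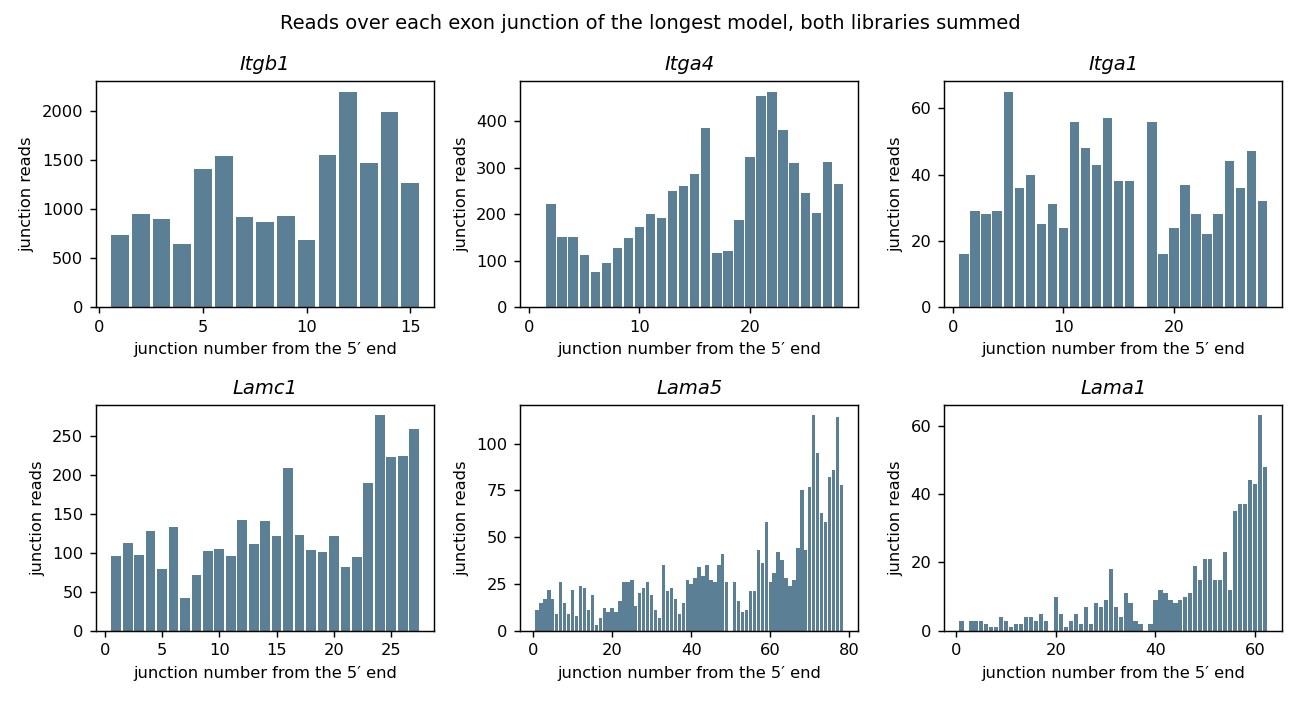
Reads over each exon junction, numbered from the 5' end, of the longest model of 6 members, summed over both libraries. Itga1 is level along its length, Lama5 and Lama1 climb toward the 3' end, and Itgb1 has at least 643 reads on every junction.

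The difference between the libraries was tested for every gene. The exact binomial test of estimated counts, with TMM library sizes and Benjamini-Hochberg adjustment over 17906 genes, called 1491 genes, 8.33% of those tested, where a call takes a 2-fold or larger change and an adjusted p below 0.05. These p-values cover counting error only and hold no spread between libraries. With a common dispersion, a coefficient of variation of 25.0% beyond counting error, the edgeR exact test called 244 genes. This dispersion was estimated from the same 2 libraries taken as 1 group, so it already holds the difference between them. Of the 35 members, the exact binomial test called 1. Itgax had 43 and 60 estimated counts, and its log2 ratio (replicate 2 over replicate 1) was 1.12 with a 95% exact interval of 0.54 to 1.73 and an adjusted p = 0.000242 by the exact binomial test. The call was not made by the edgeR exact test with that dispersion, which is no independent check, nor on the TPM ratio. Itgad, at 6 and 11 counts, had the largest ratio, 1.47, with an interval of -0.04 to 3.24 that takes in 0. The summed level of 8 macrophage markers was 200 TPM in replicate 1 and 189 TPM in replicate 2, with none called, and their part in the result was not tested.

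By adjusted p alone, 18 of the 35 members differed between the libraries, 9 lower and 9 higher in replicate 2, beside 60.8% of all tested genes. Itgb1 was lower with a log2 ratio of -0.25 (interval -0.29 to -0.22), Itga6 was lower at -0.24, Lamb1 at -0.34 and Lama4 at -0.32. Itga3 was higher at 0.52, Itga5 at 0.49, Lama5 at 0.47 and Itgal at 0.39. The median over the members was 0.00 on the log2 scale, as it was over all tested genes.

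These directions depend on the scale. With summed spike-in counts as library sizes the log2 ratios rose by 0.65 for all genes, so 34 of the 35 members were higher in replicate 2 and 1, Lama2, was lower. Against that shift Itgb1 changed sign, with 0.40. On TPM the median gene at 1 TPM or more moved by -0.23, and Itgb1 measured -0.52. Itgax was higher on each scale, with 1.78 by spike-in sizes and 0.83 on TPM. With spike-in sizes 9 of the 35 members were called, beside 3887 of 17906 tested genes.

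**Figure D5:**
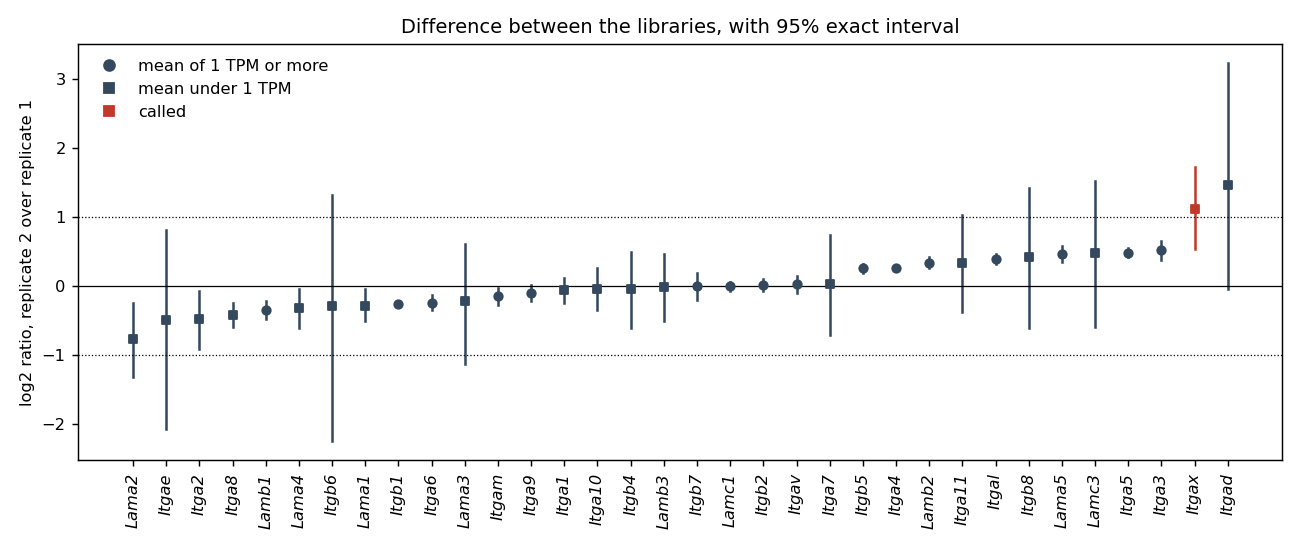
Log2 ratio of replicate 2 over replicate 1 for each member named in the text, with its 95% exact interval and dotted lines at 2-fold. Itgax is the only gene called with these TMM sizes, and the intervals widen for members with few counts such as Itgad, Itgb6 and Itgae.

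Of 99 genes on 6 lists of partners, 89 reached 1 TPM in both libraries, and 1 of 99 tested was called, beside 8.33% of all tested genes. The lists were not compared with the members by a test. On the other scale of the mm9 table, the 6 list medians lay lower, between 1.46 and 10.8 RPKM. The list that activates integrins or links them to actin had 22 of 25 genes at 1 TPM or more and a median level of 13.3 ± 0.46 TPM. The highest were Actn4 with 77.56 and 76.37 TPM, Ilk with 71.42 and 62.99 TPM, Flna with 66.51 and 54.11 TPM, and the kindlin of blood cells Fermt3 with 53.29 and 55.73 TPM. Actn4 and Flna crosslink actin, and Ilk is a scaffold at adhesions. Fermt1, the kindlin of epithelia, had 0.02 TPM in both.

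In the signalling list 18 of 19 genes were at 1 TPM or more, and its median level was 8.27 ± 0.976 TPM. The small GTPases led, with Cdc42 at 87.90 and 66.98 TPM, Rhoa at 72.41 and 61.57 TPM, Rac1 at 78.39 and 55.42 TPM and the blood-cell form Rac2 at 41.69 and 45.95 TPM. None of this list was called.

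Of the ligands other than laminins, 23 of 27 reached 1 TPM. The plasma proteins led: vitronectin Vtn had 388.02 and 355.76 TPM, C3 had 216.91 and 212.03 TPM, and the fibrinogen chains Fgg and Fga had 239.43 and 169.19 TPM and 194.96 and 104.32 TPM. Itga4's ligand Vcam1 had 20.86 and 12.53 TPM, while Madcam1, the ligand of the alpha4 beta7 pair, had 0.10 and 0.05 TPM.

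Of the 12 basement membrane partners of laminin, 10 reached 1 TPM, with a median of 4.84 ± 0.0283 TPM. Sparc, a collagen-binding matrix protein, had 56.89 and 43.03 TPM, Col18a1 had 22.95 and 24.05 TPM, Agrn had 17.86 and 18.48 TPM, and Nid1, which ties laminin to collagen IV, had 13.48 and 13.07 TPM. Col15a1, at 137 and 43 counts, was the only one called, lower in replicate 2 with a log2 ratio of -1.01 and an adjusted p = 5.86e-05 by the exact binomial test.

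All 9 genes on the list of other laminin receptors, which includes the integrin partner Cd151, reached 1 TPM. Rpsa, a ribosomal protein also described as a laminin receptor, had 1066.47 and 1078.31 TPM, and Cd151, a tetraspanin that binds alpha3 and alpha6 integrins, had 16.95 and 18.65 TPM. Sdc1 had 16.58 and 13.77 TPM and Sdc4 10.53 and 9.58 TPM, both syndecans. All 7 genes of the last list, tetraspanins and the integrin-associated Cd47, reached 1 TPM, with a median of 49.2 ± 3.85 TPM, led by Cd47 at 88.17 and 69.17 TPM, Cd82 at 69.01 and 60.13 TPM, Cd9 at 59.99 and 51.89 TPM and Cd81 at 46.44 and 55.66 TPM.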

How the data were processed

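PolyA RNA of more than 200 nt from 2 pools of E14.5 liver was sequenced in stranded pairs of 101 bases, per the labels' protocols. Per the file headers, the authors gave expected counts, TPM and FPKM per gene, and per transcript expected counts, TPM and the percent of the gene's abundance, on mm10 with annotation M4. Aligner and counter: not given in the sources used here. Splice junction read counts and mean RPKM on mm9, deposited by the authors, were used as totals or means over both libraries, since the gene table does not say which library is which.

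Symbols came from GENCODE M21, which matched 42462 of 43346 gene identifiers. The rule left out 2 further symbols of the pattern, and these and 1 member are not reported here by value. Estimated counts were rounded. edgeR 4.0.16 (R 4.3.3) gave TMM sizes and the common dispersion and DESeq2 1.42.0 gave size factors. Library differences were tested gene by gene with an exact binomial test (two-sided, conditional on the gene's total) where the total reached 10 counts, with 0.5 added to each count for fold changes. Levels and ratios are given with their spread and were not tested. The test was tried on simulated counts with counting error only, in which 200 of 17906 genes changed 3-fold. It called 87.0% of these and 3 unchanged genes. The simulation held no spread between libraries, so it does not show how many calls such spread would make. The other steps used Python 3.11.15 with scipy 1.17.1, numpy 2.4.6, matplotlib 3.10.9 and pandas 2.3.3. Of all rows, spike-in and phiX rows held 2.92% and 1.91% of estimated counts and stayed out of library sizes. The text names the other members, and of each partner list the 4 highest by TPM and every called gene, with some ligands and receptors added after their values were seen. The members and lists were chosen with earlier results of these data known. Alternatives were single libraries, other scalings, minima, lengths and the mm9 tables. No protein sequence was used here.

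Overlapping exons were checked in the annotation: 12 members overlap another gene's exon, 4 of them on the same strand (Itga1, Itga10, Itgad and Itgam), with genes that the M4 tables do not list.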

Additional observations from a re-analysis of the deposited data

How the results depend on the processing

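Of 59 alternative values of 11 results, 42 stayed on their side or within the spread and 17 moved. Of the ratios, 2 changed sign, that of laminin beta to gamma chains with the mm9 table and that of the beta1 partners over subunits that pair with beta1 alone. Levels and ratios rest on the estimate of transcript lengths, and the depth of 102720906 and 65640929 counts limits the low members, of which Itgad, Itgae, Itgb6 and others rest on fewer than 50 counts. With the mm9 mean RPKM, 9 members reached 1 and the median was 0.258, on another scale of length and depth. The laminin alpha to gamma log2 ratio was -2.46 there, the beta to gamma ratio -0.81 and the Lama5 to Lama4 ratio 0.88. The medians of the 6 partner lists were 4.35, 2.71, 3.92, 1.46, 3.31 and 10.8 RPKM, in the order of the report. With counts per length of the longest model, the alpha to gamma ratio was -1.54 and the beta to gamma ratio 0.29. With models of 2000 nt or more, a setting added after seeing the data, these were -1.25 and 0.61. TPM without globin genes and spike-ins gave a member median of 1.82. The log2 ratio of alpha subunits to Itgb1 was -1.13 when only alpha subunits that pair with beta1 alone were summed. The A-tail share of Itga6 was 67.5% by mm9 junction reads and 34.8% by expected counts. Of members called between the libraries, 9 were called with summed spike-in counts, 3 at 1.5-fold, 0 by the edgeR exact test and 0 on the TPM ratio. Over all tested genes these settings called 3887, 3117, 244 and 1671.

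Leaving out 1 library gave 16 to 17 members at 1 TPM or more, a median of 0.73 to 0.9 TPM, and log2 ratios of 0.04 to 0.54 for the beta1 partners, 0.04 to 0.31 for the beta2 partners, -1.45 to -1.39 for alpha to gamma, 0.04 to 0.18 for beta to gamma and 1.54 to 2.60 for Lama5 to Lama4. The A-tail share was 22.2% to 27.9%, the count of leading models 14 to 16 and of partners at 1 TPM 89. No paired analysis was possible because the series holds 1 group of 2 libraries and no pair of groups to compare.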
